A study of Mus musculus with 24 samples.

Results

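Nonpeptidergic nociceptors are the small sensory neurons of the dorsal root ganglion (DRG) that largely lack neuropeptides such as CGRP, respond to the growth factor GDNF through the receptor Ret, and send unmyelinated axons to the outermost skin. Many of them express the G protein-coupled receptor Mrgprd, and the transcription factor Runx1 is known to direct their development away from the peptidergic fate. Transcripts of 8 genes known to be enriched in these neurons are described here: the lysophosphatidic acid receptors Lpar3 and Lpar5, the angiotensin II receptor Agtr1a, the prostaglandin D2 receptor Ptgdr, the kinase Prkcq (protein kinase C theta), the semaphorin receptor Plxnc1, the monooxygenase-like enzyme Moxd1, and Cd55, a surface protein that limits complement activation. They were chosen by symbol among the 47643 gene identifiers of the count data. Each symbol matched an identifier, and all 8 were among the 17178 genes with enough counts to be tested.

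The data were 24 RNA-seq libraries of 100 GFP-positive cells each, sorted from dissociated L4 DRG of mice 8 to 9 weeks of age on a mixed C57BL/6 and AJ background. Control mice were Nav1.8-Cre; Tsc2 flox/+; Rosa26-ZsGreen and Nav-Tsc2 mice carried the same Nav1.8-Cre and Rosa26-ZsGreen alleles with Tsc2 flox/null, so that the controls also carried the Cre, the reporter and a floxed Tsc2 allele and lost 1 copy of Tsc2 in the sorted cells. In both genotypes the ganglia lay on the side opposite a sciatic nerve crush made 3 d earlier. Each genotype had 4 mice, numbered 1 to 4, of which 1 and 2 were male and 3 and 4 female, and each mouse gave 3 libraries named A to C. Nav1.8-Cre is active in most nociceptors and also in a part of the neurons with myelinated axons, so that the sorted cells were a mixture of neuron types.

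Libraries held between 8339220 and 34228180 counts on genes. The libraries of each mouse were added together, so that the mouse was the replicate, and levels are given as normalized CPM, the share of a gene in the counts of a library after TMM scaling. The quasi-likelihood test of edgeR was used between genotypes, and a gene was called at a Benjamini-Hochberg adjusted p under 0.05 over all tested genes together with a log2 fold change over 0.5 or under -0.5. Tsc2, the deleted gene, averaged 20.9 ± 5.18 CPM (SD, n = 4) in control and 8.87 ± 1.52 CPM (SD, n = 4) in Nav-Tsc2 mice, with a log2 fold change of -1.24 (SE 0.22, adjusted p = 0.00400 by edgeR). Neuronal identity was checked with 10 genes of all neurons, whose summed level was 15272 to 18388 CPM in control and 16229 to 18478 CPM in Nav-Tsc2 mice. Of these genes 1 was called higher (Prph) and 3 lower (Snap25, Rbfox3 and Isl1), against 9.12% and 8.00% of all tested genes. The similar sums combined opposite moves of their largest parts. Tubb3 averaged 5908 CPM in control and 7774 CPM in Nav-Tsc2 mice, and Snap25 4402 and 2051 CPM. The sum is therefore not evidence that the single genes were unchanged. Mrgprd, the defining receptor of the nonpeptidergic type, was present in every mouse, at 21.9 CPM in the lowest. That mouse was control mouse 2, whose libraries A and B held only 1.32 and 2.56 CPM and whose library C held 50.4 CPM. Control library 1C, also of a male, held 7.94 CPM, so the marker was scarce in some control male libraries.

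The 8 genes lie on separate loci (GRCm38), with Cd55 at chr1:130439027-130462744 on the minus strand, Moxd1 at chr10:24223517-24302790 on the plus strand and Prkcq at chr2:11172108-11301222 on the plus strand. Lpar3 lies at chr3:146220963-146286186, Lpar5 at chr6:125067920-125082472 and Agtr1a at chr13:30336441-30382867, all on the plus strand. Ptgdr at chr14:44851235-44859375 and Plxnc1 at chr10:94790866-94944835 are on the minus strand. For Ptgdr, 22.1% of the exonic bases overlap an antisense gene, Gm16976, and since the library kit does not mark strand, reads of both cannot be told apart there. Cd55 has a neighbouring copy, Cd55b, with which 384 of its 4801 exonic windows of 50 bases (the read length) are identical, so reads from those windows cannot be assigned. Cd55b itself had 0 to 4 counts in control and 2 to 9 counts in Nav-Tsc2 mice and was not tested.

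Promoter windows, from 250 bases before to 50 bases after an annotated transcription start (RefSeq, GRCm38.p6), were found for 7 of the 8 genes. They were searched on both strands for TGTGGT, the core sequence that RUNX factors are known to bind. Capitals mark the matches in the windows below, which are those of Lpar5, the only member with a match, and, for comparison, those of Cd55 and Ptgdr, the pair of members that varied most closely together across libraries. All run 5′ to 3′ on the gene's strand.
Lpar5, chr6:125067670-125067969, plus strand: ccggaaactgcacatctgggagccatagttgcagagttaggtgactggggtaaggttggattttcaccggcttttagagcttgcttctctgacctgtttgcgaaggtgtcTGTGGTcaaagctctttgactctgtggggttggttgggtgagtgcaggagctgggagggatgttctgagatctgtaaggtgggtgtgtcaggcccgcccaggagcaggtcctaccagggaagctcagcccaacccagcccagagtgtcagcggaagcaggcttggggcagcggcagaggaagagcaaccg
Lpar5, chr6:125071085-125071384, plus strand: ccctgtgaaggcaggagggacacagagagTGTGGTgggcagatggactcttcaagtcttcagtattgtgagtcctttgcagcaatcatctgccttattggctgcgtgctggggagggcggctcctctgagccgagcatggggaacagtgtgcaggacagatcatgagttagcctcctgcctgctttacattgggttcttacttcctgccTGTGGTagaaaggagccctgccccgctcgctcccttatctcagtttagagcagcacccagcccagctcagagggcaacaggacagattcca
Cd55, chr1:130462695-130462994, minus strand: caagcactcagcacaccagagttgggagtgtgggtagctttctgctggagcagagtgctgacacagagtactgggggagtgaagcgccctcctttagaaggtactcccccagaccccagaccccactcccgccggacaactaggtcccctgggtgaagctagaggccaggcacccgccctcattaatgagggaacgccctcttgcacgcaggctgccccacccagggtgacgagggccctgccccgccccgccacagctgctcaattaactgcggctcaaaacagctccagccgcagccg
Ptgdr, chr14:44859326-44859625, minus strand: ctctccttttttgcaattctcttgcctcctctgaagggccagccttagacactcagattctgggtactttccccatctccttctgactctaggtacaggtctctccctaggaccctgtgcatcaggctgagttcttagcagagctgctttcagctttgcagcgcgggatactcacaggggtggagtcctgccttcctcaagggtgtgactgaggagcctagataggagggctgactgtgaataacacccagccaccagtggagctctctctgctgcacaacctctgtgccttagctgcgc
The first Lpar5 window holds 1 match, which begins at position -140 from the start, and the second holds 2, at -221 and -41. Of all 32851 such windows of the genome, 16.8% hold at least 1 match. A match of these letters is a description of the sequence and not evidence of binding.

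Levels between genes were compared as CPM per kilobase of exon. In control mice Cd55 was highest, at 104 ± 60.2 (SD, n = 4), followed by Plxnc1 at 28.01 ± 12.7 and Lpar3 at 19.5 ± 15.8. Ptgdr (12.8 ± 6.94), Prkcq (8.17 ± 7.29), Agtr1a (7.87 ± 6.30) and Moxd1 (7.03 ± 5.62) came next, and Lpar5 was lowest at 0.670 ± 0.485. Neighbours in this order from Plxnc1 to Moxd1 differed by less than the SD of either gene. In Nav-Tsc2 mice the SDs were smaller for every member but Lpar5, and Moxd1 stood at 18.9 ± 3.36 CPM per kilobase, between Lpar3 (20.2 ± 4.96) and Ptgdr (16.8 ± 1.76). Cd55 was again highest, at 245 ± 46.7 CPM per kilobase.

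The first comparison asked how loss of Tsc2 altered these transcripts. Over all mice, 1 of the 8 members, Cd55, was called higher and none lower, against 9.12% and 8.00% of all tested genes. At an unadjusted p under 0.05 there were 2 members higher, Cd55 and Moxd1, and 0 lower. In either direction, 5797 of all 17178 tested genes had such a p. DESeq2 likewise called 1 member higher and 0 lower, where it called 1907 of all tested genes higher and 1770 lower. The median log2 fold change of the members was 0.27 and that of all genes tested was 0.01. In these sorted pools, fewer cells of a type and less RNA per cell cannot be told apart.

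Cd55 was measured at 245, 304, 878 and 599 CPM in control mice 1 to 4 and at 1337, 1132, 1388 and 890 CPM in Nav-Tsc2 mice 1 to 4. Every Nav-Tsc2 mouse thus lay above every control mouse, although Nav-Tsc2 mouse 4 was close to control mouse 3. The means were 506 ± 292 and 1187 ± 227 CPM (SD, n = 4 each), with a log2 fold change of 1.23 (SE 0.36, adjusted p = 0.0392 by edgeR's quasi-likelihood test). The call was lost when any mouse other than control mouse 3 was left out, with adjusted p-values from 0.0506 to 0.0966 by edgeR, and the log2 fold change stayed between 1.00 and 1.63.

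Moxd1, a relative of the enzyme that makes noradrenaline and itself of little known function in neurons, showed the same arrangement. It was measured at 8.51, 6.91, 44.1 and 30.4 CPM in control mice 1 to 4 and at 54.2, 74.4, 50.1 and 62.6 CPM in Nav-Tsc2 mice. Again no control mouse reached the lowest Nav-Tsc2 mouse. The log2 fold change of 1.43 (SE 0.53) did not pass the test (adjusted p = 0.0856 by edgeR). With sex as a covariate it was 1.81 and passed (adjusted p = 0.0308 by edgeR), and it also passed without control mouse 3 (1.98, adjusted p = 0.0191 by edgeR). Of all tested genes, 14.6% had every Nav-Tsc2 mouse above every control mouse, and Cd55 and Moxd1 were the 2 of 8 members that did.

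Over all mice, none of the member receptors for a lipid or peptide mediator (Lpar3, Lpar5, Agtr1a and Ptgdr) was called between genotypes. Lpar3, Agtr1a and Ptgdr were called when males were compared alone. Lpar3, a receptor for lysophosphatidic acid, a lipid released on tissue and nerve injury, was measured at 13.2, 16.6, 89.9 and 72.2 CPM in control mice 1 to 4 and at 66.2, 37.9, 43.9 and 51.4 CPM in Nav-Tsc2 mice. The Nav-Tsc2 values fell in the gap between the male and the female control mice, and the log2 fold change was 0.06 (SE 0.56, adjusted p = 0.962 by edgeR). Agtr1a, which binds angiotensin II, followed the same course, with 8.00, 5.62, 38.8 and 35.3 CPM in control mice 1 to 4 and 28.6, 26.3, 26.9 and 15.8 CPM in Nav-Tsc2 mice (log2 fold change 0.15, SE 0.56, adjusted p = 0.885). Here too all Nav-Tsc2 mice lay between the control males and the control females.

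Ptgdr, which couples prostaglandin D2 to cyclic AMP, was measured at 16.7, 27.4, 62.3 and 56.5 CPM in control mice 1 to 4 and at 58.0, 52.6, 57.2 and 45.8 CPM in Nav-Tsc2 mice. The groups overlapped at the level of the control females, and the log2 fold change was 0.39 (SE 0.35, adjusted p = 0.491 by edgeR). Lpar5 was near the limit of detection, with 19 to 143 counts per mouse, 0.407, 0.871, 2.08 and 0.703 CPM in control mice and 1.25, 2.53, 2.01 and 0.322 CPM in Nav-Tsc2 mice. Its genotypes overlapped across their whole range (log2 fold change 0.59, SE 0.70, adjusted p = 0.611).

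Prkcq, a kinase activated by diacylglycerol, was measured at 17.7, 10.8, 115 and 87.4 CPM in control mice 1 to 4 and at 70.0, 61.2, 71.0 and 53.1 CPM in Nav-Tsc2 mice. On the log2 scale it had the widest spread of the members in control, where females stood far above males, while the Nav-Tsc2 mice were close together (log2 fold change 0.14, SE 0.62, adjusted p = 0.906). Plxnc1, the receptor of semaphorin 7A, was measured at 121, 172, 354 and 287 CPM in control mice and at 227, 222, 247 and 195 CPM in Nav-Tsc2 mice. Its fitted difference was close to 0 (log2 fold change -0.07, SE 0.28, adjusted p = 0.896).

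**Figure D1:**
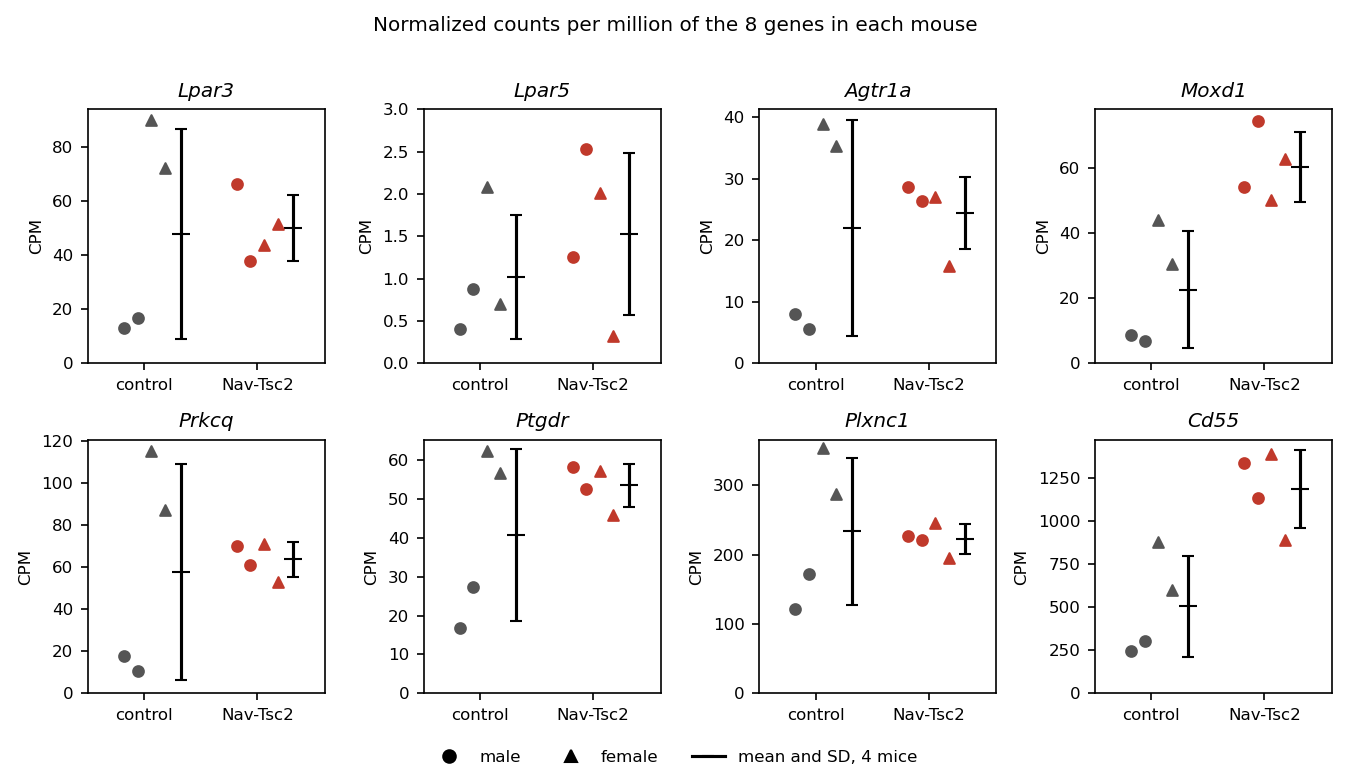
Normalized CPM of each of the 8 genes (1 panel each, linear axis from 0) in control (grey) and Nav-Tsc2 (red) mice, with circles for males, triangles for females, and the mean and SD of 4 mice as a bar. Both female control mice sit above both male control mice for the 7 genes other than Lpar5, and for Moxd1 and Cd55 alone all 4 Nav-Tsc2 mice sit above all 4 control mice.

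Among control mice, 7 of the 8 members had both females above both males, an arrangement found in 20.6% of all tested genes. Tested in a fit of the 4 combinations of genotype and sex, 4 of 8 members were called higher in female than in male control mice, against 0.524% of all tested genes. These were Prkcq (log2 difference, female minus male, 2.83, SE 0.28, adjusted p = 0.00981 by edgeR), Moxd1 (2.27, SE 0.26, adjusted p = 0.0163), Lpar3 (2.45, SE 0.28, adjusted p = 0.0179) and Agtr1a (2.44, SE 0.29, adjusted p = 0.0211). Ptgdr, Plxnc1 and Cd55 had log2 differences of 1.43, 1.13 and 1.43 and did not pass (adjusted p = 0.0542, 0.0587 and 0.0624 by edgeR), and Lpar5 had 1.12 (adjusted p = 0.702). With control mouse 1 left out 1 member was called by edgeR, and with control mouse 2 or control mouse 3 left out 0 were, although 7 of 8 kept an unadjusted p under 0.05. In these fits the lone control mouse of its sex was assumed to vary like the mice of the other groups. With all mice DESeq2 called 7 of 8 members higher in females, where it called 478 of all 17178 tested genes higher. In both genotypes sex and replicate number went together, and any litter or sorting day shared by mice 1 and 2 or by mice 3 and 4 cannot be told apart from sex.

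Among Nav-Tsc2 mice no member had both females above both males, against 19.1% of all tested genes. The log2 differences between the sexes ran from -0.70 for Lpar5 (SE 1.00) to -0.02 for Plxnc1 (SE 0.19). By edgeR 0 of 8 members were called, where 0.0291% of all tested genes were, and none had an unadjusted p under 0.05. DESeq2 also called 0 members in this comparison.

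The genotype difference was also computed within each sex, a comparison added after the values had been seen. In males, where 2 mice stood against 2, all 8 members had both Nav-Tsc2 mice above both control mice, as had 32.8% of all tested genes. The test called 6 of 8 members higher, against 8.98% of all tested genes, led by Moxd1 (log2 fold change 3.06, SE 0.26, adjusted p = 0.000836 by edgeR), Prkcq (2.20, SE 0.27, adjusted p = 0.00239) and Cd55 (2.17, SE 0.26, adjusted p = 0.00219). Agtr1a, Lpar3 and Ptgdr were called with 2.01, 1.81 and 1.33. Plxnc1 at 0.61 (adjusted p = 0.0714 by edgeR) and Lpar5 at 1.57 (adjusted p = 0.360) were not. The same 2 control males entered the comparison of control sexes, this comparison and the interaction below, so their results are not independent of each other. The members also varied together across libraries (median r of 0.66), so a count of members is not a count of separate observations.

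In females no member was called in either direction, against 4.09% of all tested genes called higher and 2.98% lower. Lpar3, Agtr1a, Prkcq and Plxnc1 had both Nav-Tsc2 females below both control females (25.1% of all tested genes did), with log2 fold changes of -0.77, -0.79, -0.71 and -0.54 and adjusted p-values from 0.137 to 0.154 by edgeR. Moxd1 and Cd55 had both Nav-Tsc2 females above both control females (27.8% of all tested genes did), with 0.60 and 0.63 (adjusted p = 0.193 and 0.187 by edgeR). Without an adjustment, 6 of 8 members had p under 0.05 in females, 4 of them negative and 2 positive. Of all 17178 tested genes, 3921 had such a p. DESeq2 called 3 members lower and 1 higher, where it called 1050 of all tested genes lower and 1279 higher.

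Whether the genotype difference itself differed between the sexes was tested as an interaction. No member passed (0 of 8, against 0.00582% of all tested genes), but 7 of 8 had an unadjusted p under 0.05. Of all 17178 tested genes, 1583 had such a p. All 7 members had a lower log2 fold change in females than in males, which was above 0 in females only for Moxd1 and Cd55. The smallest adjusted p was that of Prkcq, with a log2 interaction of -2.91 (SE 0.37, adjusted p = 0.0807 by edgeR). Lpar3, Agtr1a, Prkcq and Plxnc1 had both Nav-Tsc2 males above both control males and both Nav-Tsc2 females below both control females, as had 2.06% of all tested genes. With DESeq2, and with edgeR without a filter on low counts, 7 of 8 members passed, all negative. DESeq2 called 192 of 17178 genes with a negative interaction and 124 with a positive one. Without the filter, edgeR called 346 and 272 of 30194 genes.

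**Figure D2:**
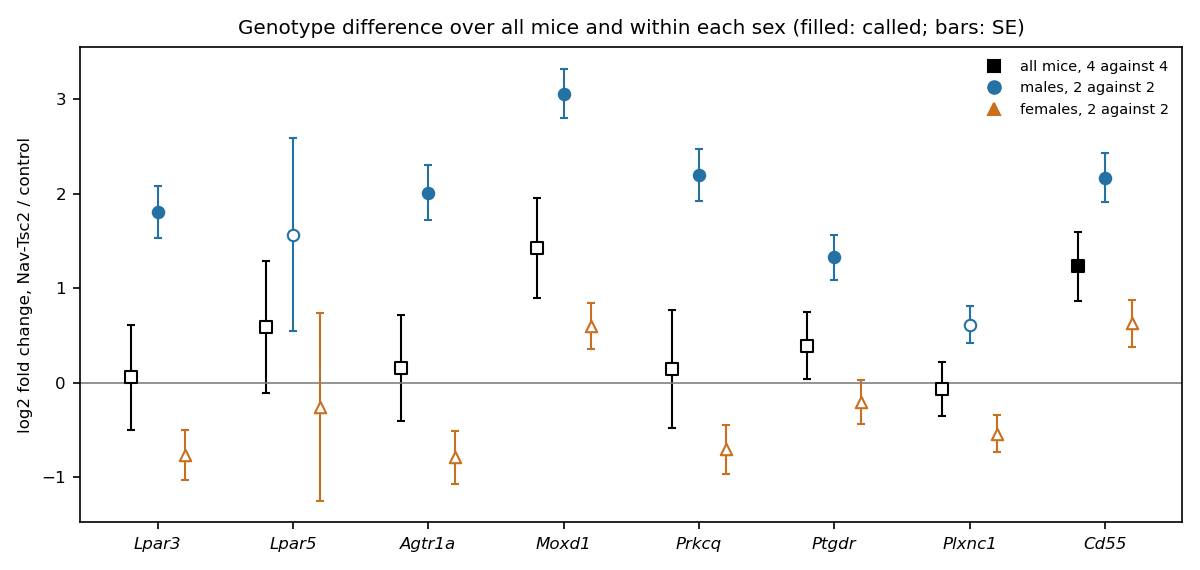
Log2 fold change of Nav-Tsc2 over control for each gene over all 8 mice (squares), in males (circles) and in females (triangles), with SE bars and filled symbols where the gene was called. In males all 8 values are above 0, from 0.61 to 3.06, whereas in females only Moxd1 and Cd55 are above 0.

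Other marker genes moved with this split. Of 18 other genes of nonpeptidergic neurons, 14 were called higher in Nav-Tsc2 males and 0 in Nav-Tsc2 females by edgeR. Between control mice, 9 were called higher in females than in males. The shares of all tested genes called higher were 8.98% in males, 4.09% in females and 0.524% between control females and males. In Nav-Tsc2 females 2 were higher and 3 lower at an unadjusted p under 0.05, and DESeq2 called 0 higher and 2 lower. The summed level of the 18 genes was 1129 to 1138 CPM in control males, 2965 to 3609 CPM in control females and 3465 to 4109 CPM in all Nav-Tsc2 mice. The summed level of 7 peptidergic markers went the other way, at 19239 to 20102 CPM in control males, 9763 to 10271 CPM in control females, 8232 to 8507 CPM in Nav-Tsc2 males and 5154 to 6126 CPM in Nav-Tsc2 females. Calca, which encodes CGRP, was the largest part of this sum, with a mean of 10162 CPM in control and 2557 CPM in Nav-Tsc2 mice. Not all 7 genes moved with the sum. Between control mice 1 was called lower in females and 0 higher, against 20 and 90 of all 17178 tested genes. By genotype 3 were lower and 1 higher in males, against 1101 and 1542 of all tested genes. In females 4 were lower and 1 higher, against 512 and 703. What part the mix of sorted neuron types had in the differences of the members was not tested.

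Over all mice 2 of these 18 genes were called higher and none lower, against 9.12% and 8.00% of all tested genes. They were Acpp, the acid phosphatase long used as a marker of these neurons (log2 fold change 1.34, SE 0.36, adjusted p = 0.0259 by edgeR), and Ggta1, an enzyme of the sugar epitope that isolectin B4 binds (1.51, SE 0.44, adjusted p = 0.0362). Mrgprd, at 56.0, 21.9, 325 and 233 CPM in control and 546, 486, 598 and 518 CPM in Nav-Tsc2 mice 1 to 4, had every Nav-Tsc2 mouse above every control mouse but did not pass (1.76, SE 0.67, adjusted p = 0.0935). P2rx3, an ATP-gated channel, and the GDNF family receptors Ret and Gfra2 had 0.53, 0.81 and 0.72 and did not pass (adjusted p = 0.155, 0.175 and 0.270 by edgeR). The median over the 18 genes was 0.57.

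The members were then set against each other within each mouse, as the log2(CPM + 1) of a gene minus the mean of the other 7. This description, chosen after the values had been seen and given without a test, shows the level of each gene relative to the others. Moxd1 lay 1.17 higher in Nav-Tsc2 than in control mice on this scale, at -1.57 to -0.87 in control and -0.37 to 0.43 in Nav-Tsc2 mice. Cd55 lay 0.77 higher, at 3.86 to 4.45 in control and 4.77 to 5.08 in Nav-Tsc2 mice. Plxnc1 lay lower, at 2.53 to 3.52 in control and 2.07 to 2.29 in Nav-Tsc2 mice. For the 5 remaining members the genotypes overlapped. Set against the members' mean in the same way, 1.06% of all tested genes had every Nav-Tsc2 mouse above every control mouse and 6.29% every Nav-Tsc2 mouse below. The differences of the 8 members on this scale sum to 0 by construction, so that the lower position of Plxnc1 is partly fixed by the higher positions of Moxd1 and Cd55.

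**Figure D3:**
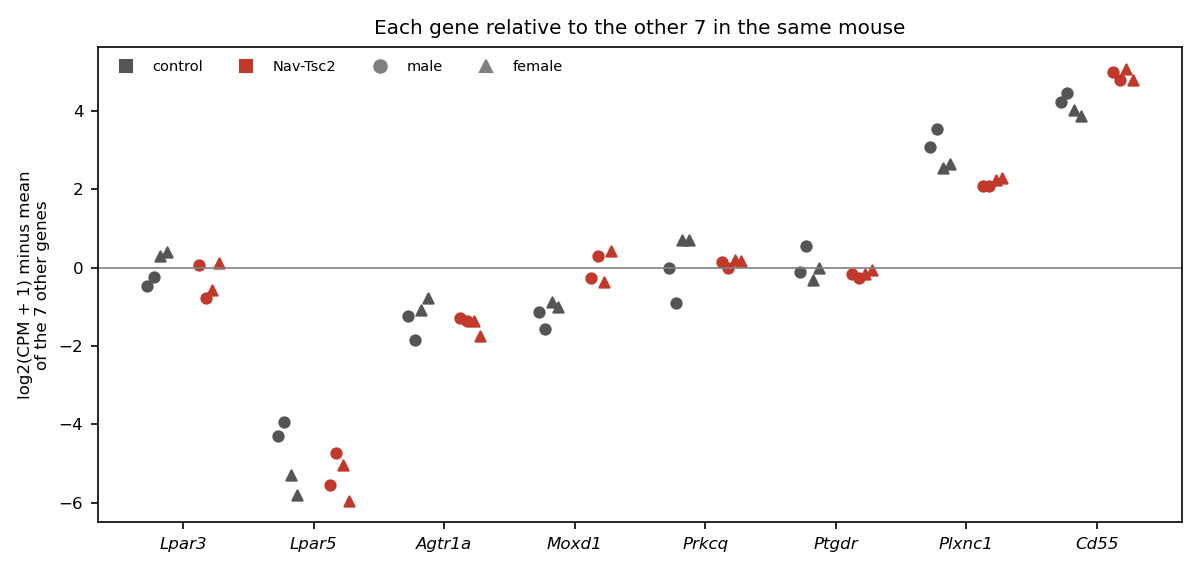
Log2(CPM + 1) of each gene minus the mean of the other 7 genes in the same mouse, for control (grey) and Nav-Tsc2 (red) mice, males as circles and females as triangles. Moxd1 and Cd55 are higher in all 4 Nav-Tsc2 mice than in all 4 control mice, Plxnc1 is lower, and the 5 other genes overlap.

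Each of the 3 libraries of a mouse held its own 100 cells, and the members differed widely between them in control mice. Prkcq was nearly absent from control libraries 1C (0.093 CPM) and 2A (0.063 CPM) but reached 41.7 CPM in 1A and 24.5 CPM in 2C of the same mice. Agtr1a had no count in control libraries 2A and 2B and 13.7 CPM in 2C, and Lpar3 had 0.125 and 0.394 CPM in 2A and 2B and 40.0 CPM in 2C. No Nav-Tsc2 library was as low for any of these 3 genes, the lowest being 24.1 CPM for Prkcq, 10.6 CPM for Agtr1a and 15.6 CPM for Lpar3.

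On the log2(CPM + 1) scale the SD between libraries of a mouse was 1.88 for Prkcq, 1.82 for Lpar3 and 1.59 for Agtr1a in control and 0.52, 0.65 and 0.38 in Nav-Tsc2 mice. For all genes with a mean of at least 10 CPM its median was 0.37 in control and 0.24 in Nav-Tsc2 mice. Plxnc1 did not share this contrast, with an SD of 0.64 and 0.63. Between mice, the SD of Prkcq was 1.63 in control and 0.19 in Nav-Tsc2 mice, and that of Cd55 was 0.85 and 0.29.

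**Figure D4:**
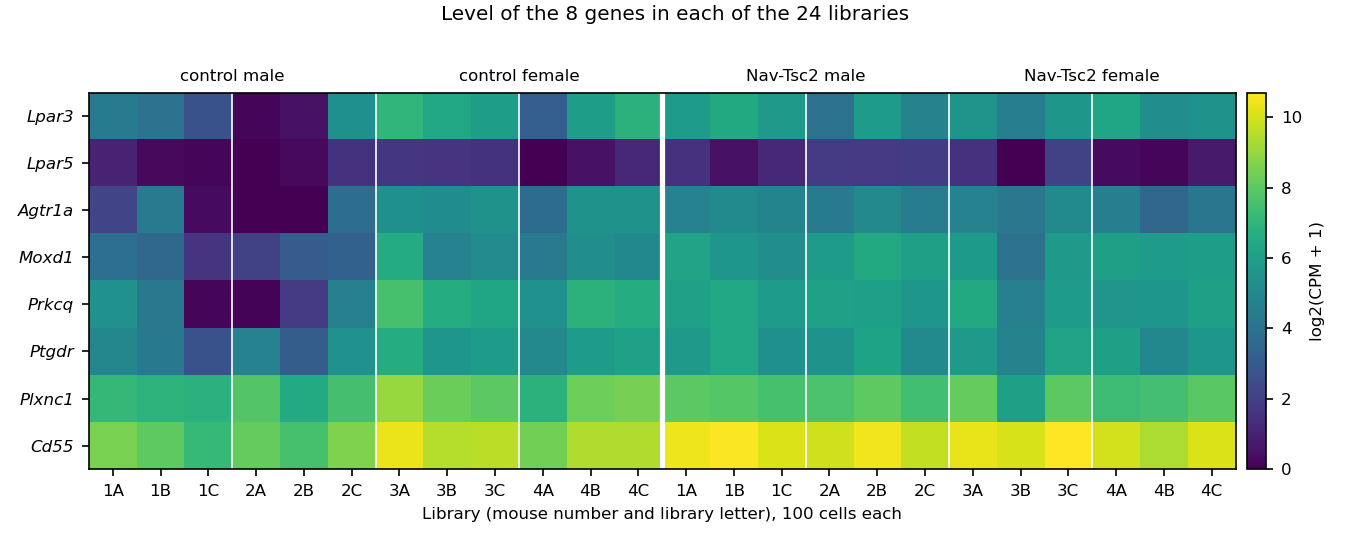
Log2(CPM + 1) of the 8 genes (rows) in the 24 libraries (columns), ordered by genotype, sex and mouse, from dark (0) to bright (high). Control male libraries 1C, 2A and 2B are dark for Prkcq, Lpar3 and Agtr1a, and Cd55 is the brightest row throughout.

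A library low in a member tended to be low in the others. For the 7 members other than Lpar5, control library 1C held the lowest value of its mouse for all 7, as did control library 4A and Nav-Tsc2 library 3B. Expressed as deviations from the mouse's own mean, all 28 pairs of members were positively correlated across the 24 libraries, with a median Pearson r of 0.66 and a range of 0.32 to 0.93. The median over an evenly spaced sample of the pairs of genes with a mean of at least 10 CPM was 0.00267. These values are descriptions, since libraries of a mouse share their animal and dissociation and each carries its own depth.

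Cd55 and Ptgdr, a complement regulator and a prostaglandin receptor, were the closest pair (r = 0.93), and Agtr1a and Plxnc1 the least close (r = 0.32). Lpar3 and Agtr1a had r = 0.83 and Moxd1 and Prkcq r = 0.80. The median of the 28 pairs was 0.71 over the 12 control libraries and 0.64 over the 12 Nav-Tsc2 libraries. Single pairs shifted more, since Prkcq and Plxnc1 had r = 0.26 in control and 0.94 in Nav-Tsc2 libraries, and Lpar3 and Lpar5 had 0.93 and 0.27.

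**Figure D5:**
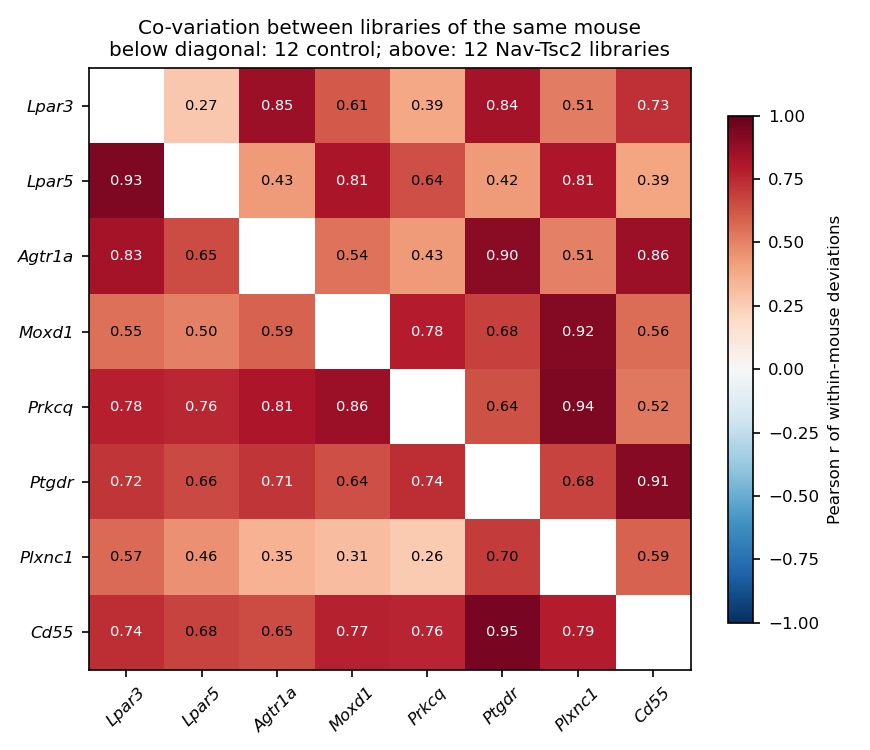
Pearson r between each pair of genes over the deviations of libraries from their mouse's mean log2(CPM + 1), for 12 control libraries below the diagonal and 12 Nav-Tsc2 libraries above it. All values are above 0, from 0.26 to 0.95.

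Of 8444 other genes with a mean of at least 10 CPM, the 10 whose deviations were most like the members' mean included Mrgprd (r = 0.88), which is in the list of 18 other nonpeptidergic genes. Cdh1 (r = 0.94) and Cdh11 (r = 0.89) encode cadherins, and Kif5b (r = 0.91) a kinesin heavy chain that carries cargo along axons. Lix1 (0.89), Cab39l (0.87), Rgs7 (0.86), Morf4l2 (0.86) and Phf24 (0.85) were also among the 10. With control mouse 2 left out, 4 of these 10 remained among the closest 10, and with control mouse 1 left out 6 did.

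As lists, the mean of the other nonpeptidergic genes followed the members with r = 0.95 over the 24 libraries. The peptidergic list had r = -0.27 in control and -0.09 in Nav-Tsc2 libraries. The list of all neurons had -0.37 and 0.38 and satellite glia 0.11 and -0.62, so that their values over the 24 libraries (0.03 and -0.12) combine opposite signs. Over the 24 libraries the other genes of protein kinases C and D had r = 0.64 and the lysophosphatidic acid genes -0.70. The copper monooxygenase entries had -0.77, with Dbh and its antisense transcript Dbhos, whose reads cannot be told apart, as separate entries.

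Genes that share a pathway with the members were compared between genotypes over all mice, where 17.1% of all tested genes were called. Of 10 tested lysophosphatidic acid genes, the phosphatase Plpp1 was called lower (log2 fold change -1.002, adjusted p = 0.00843 by edgeR). The phosphatase Plpp2 (0.94, adjusted p = 0.00379 by edgeR) and the lipase Liph (3.21, adjusted p = 0.0465) were called higher. Liph was near the limit of detection in control, at 1.12 ± 1.23 CPM (SD, n = 4), and averaged 10.3 CPM in Nav-Tsc2 mice. Of 8 angiotensin genes, Agtr1b, the second receptor of this type, was called lower, from 49.0 ± 26.4 to 11.98 ± 4.24 CPM (SD, n = 4, log2 fold change -2.03, adjusted p = 0.00631), and Atp6ap2, the renin receptor and proton pump subunit, higher (0.90, adjusted p = 5.47e-05). Agtr1a and Agtr1b share 33 of the 2922 windows of Agtr1a, so that few reads could be split between them. Of 11 prostaglandin genes, the prostacyclin receptor Ptgir (-2.70, adjusted p = 0.00109) and the prostaglandin E2 receptor Ptger4 (-1.91, adjusted p = 0.00675) were lower and Hpgd, which inactivates prostaglandins, higher (3.29, adjusted p = 0.0107).

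Of 11 other genes of protein kinases C and D, Prkcb (-2.70, adjusted p = 0.000471 by edgeR) and Prkce (-0.78, adjusted p = 0.00157) were lower and none higher. Of 10 genes of semaphorin 7A and plexins, Itgb1, the integrin chain that also binds semaphorin 7A, was higher (1.06, adjusted p = 0.000415), as were Plxna1 (1.10, adjusted p = 0.0141) and Plxna3 (0.97, adjusted p = 0.0149). Of 8 complement genes, 1 was lower and Cd59b, which blocks the last step of complement attack, was higher (1.14, adjusted p = 0.0408). Of 3 copper monooxygenase entries only Dbhos was called, higher at 2.65 (adjusted p = 0.0382 by edgeR). Dbhos is an antisense transcript of Dbh whose reads cannot be told apart from those of Dbh. It was near the limit of detection, at 0.380 ± 0.275 CPM in control and 2.41 ± 0.957 CPM in Nav-Tsc2 mice (SD, n = 4 each). Summed over these lists, 9 genes were higher and 7 lower, and with replicate number as a block 5 were higher and 10 lower.

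Markers of other neuron types were called as follows, where 9.12% of all tested genes were called higher and 8.00% lower. Of 7 peptidergic genes 3 were lower, among them Calca and Kit (log2 fold changes -1.99 and -2.74, adjusted p = 0.00215 and 0.00129 by edgeR), and Gal was higher (1.70, adjusted p = 0.0108). Of 3 tested markers of the itch neurons with Mrgpra3, 1 was lower, and of 5 markers of the itch neurons with Nppb and Sst, 3 were lower, Sst by -9.04 (adjusted p = 0.000144). Of 6 markers of low-threshold C fibres, Th and Gfra3 were higher and Piezo2 lower, and of 6 markers of large neurons 0 were called by edgeR (1 at an unadjusted p under 0.05 and 1 by DESeq2). With replicate number as a block, 3 genes of these lists and the nonpeptidergic list were higher in place of 5.

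Markers of cells other than neurons moved with genotype in part, where 9.12% of all tested genes were called higher and 8.00% lower. All 3 tested endothelial genes of 5 listed were higher in Nav-Tsc2 mice, with a summed level of 0.201 to 0.928 CPM in control and 7.37 to 19.9 CPM in Nav-Tsc2 mice, while of the 2 untested markers Pecam1 had 0 to 79 counts in control and 0 to 49 in Nav-Tsc2 mice and Cldn5 at most 3 counts in any mouse. Of 5 macrophage genes Cx3cr1 was higher, and C1qa had at most 5 counts in any mouse. Of 7 satellite glia genes S100b was lower, with a summed level of 1494 to 1794 CPM in control and 578 to 898 CPM in Nav-Tsc2 mice. By edgeR 0 of 6 Schwann cell, 0 of 6 fibroblast and 0 of 2 red blood cell genes were called, where DESeq2 called 1, 0 and 1 and 1, 0 and 2 had an unadjusted p under 0.05. The part of these cells in the differences of the members was not tested.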

How the data were processed

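RNA-seq was made from 24 libraries of 100 sorted cells, 3 for each of 8 mice. Per the labels and the methods, the authors amplified RNA with a SMARTer Ultra Low kit, sequenced single reads of 50 bases, aligned them to mm10 with STAR and counted them per gene with HTSeq. The authors deposited raw counts per gene and library, without normalization. A second deposited table, of the authors' own DESeq2 comparison, was not used. Of 47643 identifiers 47224 matched a symbol of the GENCODE annotation (GRCm38). Reads assigned to no gene made up 48.8% ± 1.20 of control and 51.1% ± 1.94 of Nav-Tsc2 libraries (SD, n = 12) and were left out. Without molecular identifiers, counts are reads and not molecules.

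Libraries were summed per mouse, filtered with filterByExpr (17178 genes), scaled by TMM and tested in R 4.3.3 with edgeR 4.0.16. Calls needed both the adjusted p (limit 0.05) and a log2 fold change beyond 0.5 in either direction. Standard errors were derived from each log2 fold change and its F statistic. Sex comparisons used a fit of 4 groups of 2 mice. Library patterns used log2(CPM + 1) minus the mouse mean. Alternatives were DESeq2 1.42.0, its size factors, upper-quartile scaling, no filter, equal weight per library, a replicate block, sex as a covariate, limma 3.58.1 voom on the single libraries with a random effect of mouse, other thresholds, another pseudocount (5) and leaving out each mouse. The comparison within each sex was added after seeing the data. On simulated counts with 200 genes changed 2-fold between genotypes, 90 were recovered with 4 false calls. For a 4-fold interaction, 86 of 200 were recovered with 11 false calls, and for a 2-fold interaction 0 were.

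Whether equal replicate numbers pair mice across genotypes was checked with the deviations of 8445 genes from their genotype means. Same-numbered mice correlated at 0.083, 0.108, 0.019 and 0.107 on log2(CPM + 1) and at 0.184, 0.185, 0.108 and 0.199 with edgeR's prior count of 2, so that the limit of 0.1 was passed by all pairs only on the second scale. There, same-sex pairs whose numbers differed reached 0.0627 to 0.198, so that number and sex cannot be told apart. The labels state the replicates as separate mice and give no litter or day.

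The members and lists were chosen with earlier results of these data known. The genes named were Tsc2, the members, called genes of each list (at most 4), Mrgprd, P2rx3, Ret, Gfra2, Ggta1 and Cd55b, and the 10 genes closest to the members across libraries. A few genes chosen this way are not reported here by name, though counts over lists include them. Sequences are from RefSeq (GRCm38.p6).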

Additional observations from a re-analysis of the deposited data

Results flagged for a closer look

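For 4 members both Nav-Tsc2 males lay above both control males while both Nav-Tsc2 females lay below both control females, as in 2.06% of all tested genes. The log2 interactions were -2.57 for Lpar3, -2.80 for Agtr1a, -2.91 for Prkcq and -1.15 for Plxnc1, and none passed the test (adjusted p = 0.128, 0.128, 0.0807 and 0.290 by edgeR).

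Of 28 groups of 4 mice looked at with Dixon's rule, 2 had a mouse set apart, close to the 1 in 20 that chance gives. Nav-Tsc2 mouse 4 was low for Agtr1a (15.8 CPM) and Nav-Tsc2 mouse 3 was high for P2rx3 (359 CPM).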

How the results depend on the processing

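Over all mice the count of members called higher (1) became 2 with sex as a covariate or with 24 libraries and the mouse as a random effect, where Moxd1 joined Cd55, 0 at the stricter threshold (adjusted p 0.01 and log2 fold change 1), and 0 to 2 with a mouse left out. It was 6 in males only and 0 in females only. No member was called lower in any of these. Of all genes, 1633 of 17178 were called higher with sex as a covariate and 2207 of 13880 with 24 libraries. Genes of the 7 pathway lists called higher (9) numbered 5 with the replicate block and 1 at the stricter threshold, and those called lower (7) numbered 12 with DESeq2 and 11 with sex as a covariate. Genes of the 6 neuron type lists called higher (5) numbered 3 with the replicate block, 16 with 24 libraries, 0 at the stricter threshold and 1 (without Nav-Tsc2 mouse 1) to 8 (without control mouse 3) with a mouse left out, with 2 without Nav-Tsc2 mouse 2 or 4, and those called lower (8) numbered 4 with 24 libraries. The replicate block changed no call of a member.

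Members called higher in female than in male control mice (4) numbered 7 under DESeq2, 7 when no gene was filtered and 0 to 4 with a mouse left out. For the interaction the count was 7 with DESeq2 and 7 without the filter, in place of 0. In females DESeq2 called 3 members lower and 1 higher, and edgeR without the filter 4 lower and 2 higher, in place of 0. Of 30194 genes, edgeR without the filter called 1192 lower and 1454 higher in females. Between control mice it called 631 of these genes higher in females than in males. In males 5 to 7 members were called higher with a mouse left out. The cause of these changes was not tested.

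The log2 fold change of Plxnc1 by genotype turned to 0.043 under the replicate block, 0.035 under the sex covariate and 0.028 with 24 libraries, and ran from -0.29 to 0.19 with a mouse left out. Likewise Lpar3 ran from -0.26 to 0.55, Agtr1a from -0.17 to 0.58 and Prkcq from -0.20 to 0.72. With 24 libraries Lpar3, Agtr1a and Prkcq rose to 1.35, 1.95 and 1.93 without being called. The differences between female and male Nav-Tsc2 mice ran from -0.48 to 0.33 for Lpar3, -2.55 to 0.081 for Lpar5, -0.40 to 0.049 for Moxd1, -0.31 to 0.11 for Prkcq, -0.27 to 0.043 for Ptgdr, -0.20 to 0.13 for Plxnc1 and -0.47 to 0.16 for Cd55, and Lpar5 by genotype in females ran from -2.10 to 0.73. The median r of the 28 pairs was 0.78 when centred on the genotype mean and 0.62 to 0.68 with a mouse left out. Of the 10 closest genes, 4 to 10 were kept with a mouse left out. With 2 mice of a sex per genotype, a 2-fold interaction was not recovered in simulated counts.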
